A study of Mus musculus with 4 samples.

Results

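The 10 genes described here are named for the making and use of nicotinamide adenine dinucleotide (NAD) and were measured in mouse quadriceps: the nicotinamide riboside kinases Nmrk1 and Nmrk2, the entry enzymes Nampt and Naprt, the adenylyl transferases Nmnat1 and Nmnat3, the NAD kinase Nadk, the transhydrogenase Nnt, and the sirtuins Sirt1 and Sirt3. They were chosen by symbol, and all 10 of 10 had 1 probe set each among the 16492 probe sets tested (15268 distinct named genes). RNA was measured on Affymetrix arrays, 1 per mouse. The mdm mutant group (mutant below) held 2 mice labelled Titin mutant and the wild type group 2 mice labelled Titin wild type, all 4 given as B6C3Fe a/a-Ttnmdm/J by strain, with no treatment, age or sex given in the labels. The sample titles carry Ttn+ for the mice of the mutant group and Ttn- for those of the wild type group, signs that could be read the other way. The genotype field sets the direction used here, and the source names and descriptions likewise place the mutation in the Ttn+ mice. The comparison asks which transcripts differ between quadriceps with and without the titin mutation.

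NAD is the electron carrier that links fuel oxidation to the respiratory chain, and it is also consumed as a substrate by sirtuins, poly(ADP-ribose) polymerases and ADP-ribosyltransferases, so cells remake it continuously. In muscle most of it comes back through salvage of nicotinamide, which Nampt turns into nicotinamide mononucleotide. A parallel entry is phosphorylation of nicotinamide riboside by Nmrk1 and Nmrk2, the second of which is largely restricted to muscle and was first described there as a protein that binds integrin. The Nmnat enzymes then complete NAD in the nucleus (Nmnat1) or are assigned to mitochondria (Nmnat3).

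Of the 10 genes, Nmrk2 and Nmnat1 fell in mutant muscle and 0 rose in limma (0 also at an unadjusted p under 0.05), and the upstream sequences of the 2 genes that fell are shown because no other of the 10 passed the test. Each is the 250 bases before a start site, from RefSeq on GRCm38.p6, read 5′ to 3′ on the gene's strand. That of Nmrk2 is chr10:81202038-81202287 on the minus strand and that of Nmnat1 chr4:149485211-149485460 on the minus strand, the farther upstream of its 2 windows, which share most of their bases. Capitals mark matches, on either strand, to 3 short motifs. The first is the E-box CAGGTG, the kind of site that basic helix-loop-helix factors of muscle bind. The second, spelled GGGCGG, is the GC box recognised by factors of the SP family. The third is the TATA box of core promoters, spelled TATAAA here.
Nmrk2: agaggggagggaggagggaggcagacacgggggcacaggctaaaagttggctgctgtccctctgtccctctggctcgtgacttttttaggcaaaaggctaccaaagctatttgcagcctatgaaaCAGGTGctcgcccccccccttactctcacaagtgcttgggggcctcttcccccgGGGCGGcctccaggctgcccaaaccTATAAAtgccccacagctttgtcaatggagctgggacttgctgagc
Nmnat1: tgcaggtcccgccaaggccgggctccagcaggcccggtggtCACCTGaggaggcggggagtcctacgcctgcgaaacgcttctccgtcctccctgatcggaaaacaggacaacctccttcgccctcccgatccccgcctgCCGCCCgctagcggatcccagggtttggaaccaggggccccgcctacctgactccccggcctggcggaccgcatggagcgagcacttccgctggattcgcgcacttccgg
Both windows held 1 such E-box and 1 GC box, and that of Nmrk2 also held a TATA box. Of 32851 windows of this length before mouse start sites, 17.2% held this E-box, 32.7% the GC box and 12.4% the TATA box. The clock E-box CACGTG was also searched and had no match in these 2 windows, while 6.02% of all windows held it. The same was true of a further E-box, CAGCTG, held by 13.0% of all windows, and of AAGGTCA, part of the site of many nuclear receptors, held by 4.08%. Windows were found for 8 of the 10 genes. The matches in these 2 windows do not overlap each other, and they describe letters, not binding.

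Values are the authors' log2 RMA values, levels are means ± SD with n = 2 mice per group throughout, and differences are mutant minus wild type ± the standard error from limma. The adjusted p-values come from limma and were corrected by Benjamini-Hochberg across the 16492 probe sets, and a gene passed the test at an adjusted p under 0.05. The table's values ran from 5.42 to 14.98, with a median of 7.28 on the array of mutant 1. Precision is limited by the 4 arrays. Of all probe sets, 12.8% passed the test (6.36% lower and 6.46% higher), and in 60.9% the groups had no overlap in their values. The skeletal muscle markers Acta1, Ckm and Tnni2 read 14.75 or above on all 4 arrays, at the top of the scale. The arrays differed in 2 ways that the labels do not give. Wild type 2 read 9.98 for Xist, which marks female tissue, against 6.17 to 6.23 in the other 3, and 5.88 for the Y-linked Eif2s3y against 9.28 to 9.65. Wild type 1 read lowest for slow fibre genes: Myh7, the slow myosin heavy chain, read 8.45 there against 11.93 in wild type 2 and 11.62 and 10.40 in mutant 1 and 2. For the 10 genes, each call or sign that changes with one of these mice left out is given below or in the closing section. The mutation itself was not checked by the level of Ttn, which read 12.66 and 12.68 in mutant and 12.58 and 12.65 in wild type mice, because where its probe set lies relative to the mutation was not analysed here.

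Across the 10 genes, 2 passed the test, or 20.0%, beside 12.8% of all probe sets. That count is too small to set the group apart from the array. The differences had a median of −0.26, against −0.02 over all probe sets. They were negative in 8 and positive in 2, where 55.6% of all probe sets were negative, and 7 were negative with arrays centred on the hybridization controls, a scaling that moves the median of all probe sets from −0.02 to 0.09 and that of the 10 genes to −0.15. Under that scaling Nmrk2 and Nmnat1 still passed and no other of the 10 did. In 7 of the 10 the groups did not overlap, beside 60.9% of all probe sets, so this count does not set the 10 genes apart. Of these 7, 5 did not pass the test.

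**Figure D1:**
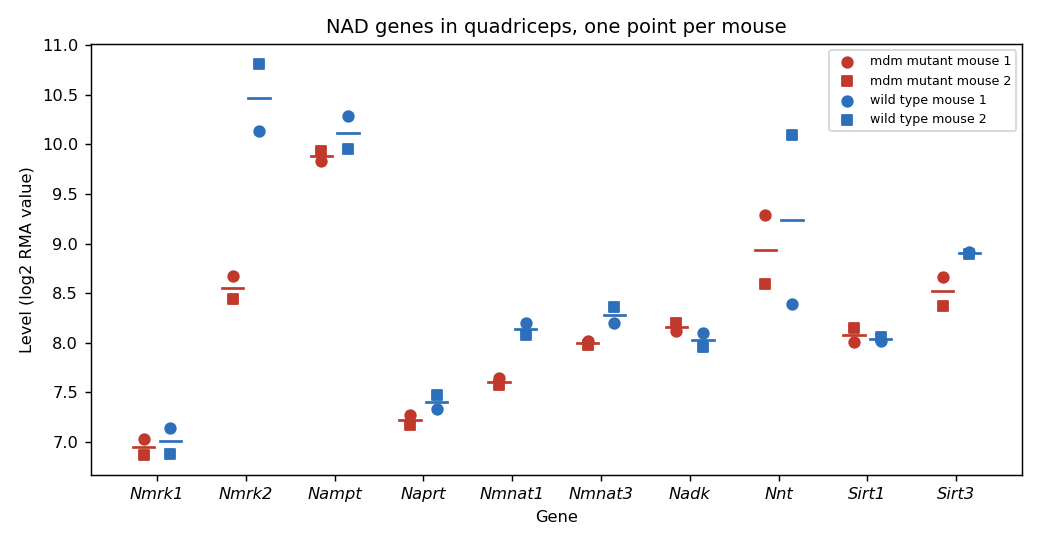
Level of each of the 10 genes on the log2 RMA scale (vertical axis) in each mouse, mutant in red and wild type in blue, circles for mouse 1 and squares for mouse 2, with a short line at the group mean. Nmrk2 shows the widest gap between groups (8.56 against 10.47), and Nnt the widest spread within a group (8.39 and 10.09 in wild type mice).

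Nmrk2, the muscle nicotinamide riboside kinase, changed most. The mutant mice read 8.67 and 8.44 and the wild type mice 10.13 and 10.82. Both mutant mice lay well below both wild type mice, and the gap of 1.46 between the nearest values exceeded the 0.68 that separated the wild type mice from each other. The spread within groups was also wide. The residual SD, which measures it in the fit, was 0.36, the rank 126 largest of the 16492 probe sets. The level was 8.56 ± 0.16 in mutant and 10.47 ± 0.48 in wild type muscle, a fall of 3.78-fold to 26.5% of the wild type mean (−1.92 ± 0.23, 95% interval −2.49 to −1.35, adjusted p = 0.0115). It was the fourth most negative difference on the array, and 2 called probe sets fell further. The difference lay between −2.26 and −1.58 with any 1 mouse left out. It did not pass without mutant 2 (adjusted p = 0.0575) and passed without wild type 1 (adjusted p = 0.0128) or wild type 2 (adjusted p = 0.0209).

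Nmrk1, the broadly expressed riboside kinase that does the same chemistry, read 7.03 and 6.86 in mutant and 7.14 and 6.87 in wild type mice. The groups overlapped, and a difference of −0.06 ± 0.11 missed the threshold (95% interval −0.33 to 0.21, adjusted p = 0.756). It was the dimmest of the 10 and the only one below the median brightness of the array. Its interval lies above that of Nmrk2, but the difference between these 2 intervals was not itself tested.

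Nampt, which makes nicotinamide mononucleotide from nicotinamide, read 9.83 and 9.93 in mutant and 10.29 and 9.95 in wild type mice. The values did not overlap, but mutant 2 and wild type 2 lay 0.02 apart. The test was not passed at −0.23 ± 0.12 (95% interval −0.53 to 0.06, adjusted p = 0.247), and the difference lay between −0.40 and −0.07 with 1 mouse left out. Naprt, the enzyme that starts NAD synthesis from nicotinic acid, read 7.27 and 7.17 against 7.33 and 7.47. The mutant mice lay below the wild type mice by a margin of 0.06, and the difference of −0.18 ± 0.07 did not pass (95% interval −0.36 to −0.00091, adjusted p = 0.161).

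**Figure D2:**
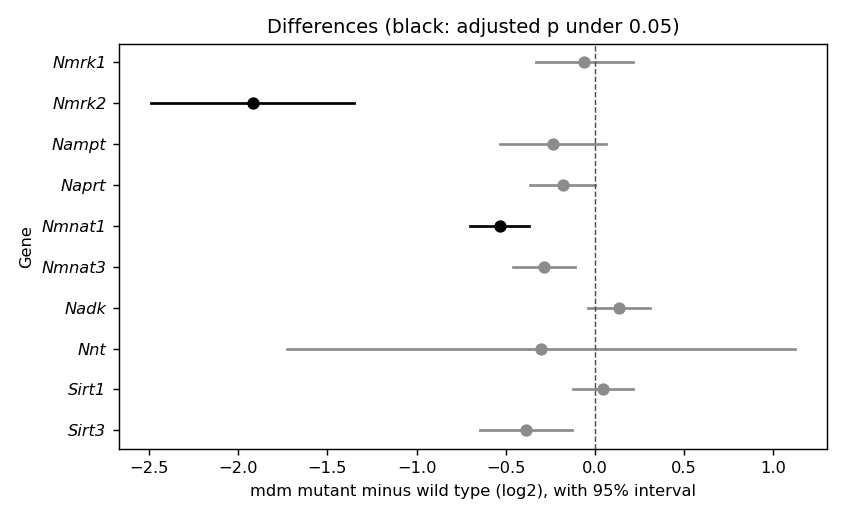
Difference between mutant and wild type muscle on the log2 scale (horizontal axis) for each gene, with the 95% interval from limma. Black marks the genes with an adjusted p under 0.05, Nmrk2 at −1.92 and Nmnat1 at −0.53, and grey the other 8.

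Nmnat1, the nuclear enzyme that joins nicotinamide mononucleotide to an adenylyl group, fell. The mutant mice read 7.64 and 7.57 and the wild type mice 8.20 and 8.08. The values spanned 0.07 in mutant and 0.12 in wild type mice. The residual SD was 0.071, above the median of 0.0575 over all probe sets. The level was 7.61 ± 0.05 in mutant and 8.14 ± 0.09 in wild type muscle, a 1.45-fold fall (−0.53 ± 0.07, 95% interval −0.70 to −0.37, adjusted p = 0.0123). The call was lost without mutant 2 (adjusted p = 0.0592) or wild type 1 (adjusted p = 0.0567), although the difference stayed between −0.59 and −0.47.

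Nmnat3, assigned to mitochondria, read 8.02 and 7.98 in mutant and 8.20 and 8.36 in wild type mice. The groups did not overlap. The difference of −0.28 ± 0.07 missed the threshold (95% interval −0.46 to −0.11, adjusted p = 0.0555) and reached it only with trend and robust moderation (adjusted p = 0.0472).

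Nadk, which phosphorylates NAD to NADP, read 8.12 and 8.20 in mutant and 8.09 and 7.96 in wild type mice. Its groups lay 0.03 apart at the nearest values, with both mutant mice above, and the difference of 0.13 ± 0.07 did not pass (95% interval −0.04 to 0.31, adjusted p = 0.252). Nnt, the inner mitochondrial membrane enzyme that passes hydride from NADH to NADP, gave the widest spread. It read 9.29 and 8.59 in mutant and 8.39 and 10.09 in wild type mice, so the wild type mice held both the lowest and the highest value. The residual SD of 0.92 was rank 15 of the 16492 probe sets, and its mean difference of −0.30 ± 0.57 did not pass (95% interval −1.73 to 1.12, adjusted p = 0.764). Its sign changed with the mice used, from −1.15 without wild type 1 to 0.55 without wild type 2. The C57BL/6J inbred strain is known to carry a deletion in Nnt, and the labels give no Nnt genotype.

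Over the 4 mice Nnt read highest in wild type 2, then mutant 1, mutant 2 and wild type 1. Of 5 slow fibre genes examined, Myh7, Myl2 and Myl3 had this order and Tnnt1 and Tnni1 did not. Tnnt1, a slow troponin T, read 11.67 and 10.84 in mutant and 8.52 and 11.49 in wild type mice, highest in mutant 1. Tnni1, a slow troponin I, read 11.11 and 10.76 against 7.59 and 10.41, so both mutant mice lay above both wild type mice. All 5 read lowest in wild type 1, as Nnt did. Ldhb, a lactate dehydrogenase gene examined beside them, read 10.24 and 9.18 in mutant and 9.90 and 10.70 in wild type mice, lowest in mutant 2. The 4 genes nearest to Nnt in centred pattern over these 4 arrays were Myl3, the slow skeletal and ventricular myosin light chain, Cish, Cand2 and Smtnl1, at distances of 0.53, 0.53, 0.66 and 0.70 on the log2 scale. These genes, Ldhb and the slow fibre genes were chosen after the values were seen. Myl3 read 10.95 and 10.26 in mutant and 9.67 and 12.13 in wild type mice. The part of slow fibre content in the Nnt values was not tested.

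The sirtuins are NAD-dependent deacylases. Sirt1, mainly nuclear, read 8.01 and 8.15 in mutant and 8.01 and 8.06 in wild type mice. The groups overlapped, and the difference was 0.04 ± 0.07 (95% interval −0.12 to 0.21, adjusted p = 0.710). Sirt3, the main deacetylase of the mitochondrial matrix, read 8.67 and 8.37 in mutant and 8.91 and 8.89 in wild type mice. Both mutant mice lay below both wild type mice, which differed by 0.02, but the mutant mice differed by 0.29. The difference of −0.38 ± 0.10 (95% interval −0.64 to −0.13) did not pass with all mice (adjusted p = 0.0690) and passed without mutant 1 (−0.53, adjusted p = 0.0286).

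**Figure D3:**
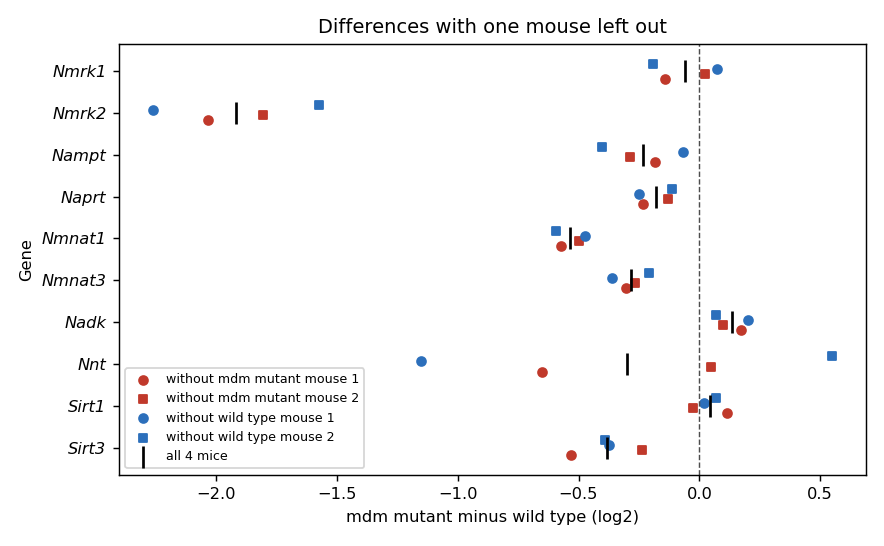
Difference between groups on the log2 scale (horizontal axis) for each gene with all 4 mice (black bars) and with each mouse left out in turn (red for a mutant mouse left out, blue for a wild type mouse). Nmrk2 stays between −2.26 and −1.58 and Nmnat1 between −0.59 and −0.47, while Nnt runs from −1.15 to 0.55.

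Other genes of NAD supply did not pass in the main limma fit. Of 16 further synthesis and precursor genes measured, 0 rose and 0 fell in limma (1 higher and 2 lower at an unadjusted p under 0.05), and their median difference was −0.04. With the hybridization controls 1 of them rose and the median was 0.08. The number that rose was also 1 with trend and robust moderation, and with probe sets below the median brightness left out. The mitochondrial NAD carrier Slc25a51 read 9.26 and 9.21 in mutant and 9.44 and 9.47 in wild type mice (−0.22 ± 0.05, adjusted p = 0.0514). Pnp, the nucleoside phosphorylase that can release nicotinamide from its riboside, read 9.07 and 9.49 against 8.76 and 8.54 (0.63 ± 0.15, adjusted p = 0.0550). Nmnat2, the cytosolic adenylyl transferase best known in neurons, stood at −0.14 ± 0.05 and the mitochondrial NAD kinase Nadk2 at −0.17 ± 0.09. Of these 16 genes, 4 lay above the median brightness of the array. The measured genes of the pathway from tryptophan all lay below it. Their lack of a call therefore says little about them.

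Among NAD consumers 3 of 27 measured genes fell and 0 rose in limma (5 lower and 2 higher at an unadjusted p under 0.05). That is 11.1%, beside 12.8% of all probe sets, so the count does not set this list apart from the array. No list was tested as a set. The median was −0.02. With the hybridization controls 4 rose and 2 fell, and the median was 0.09. Art1, the mono-ADP-ribosyltransferase of the muscle surface that modifies integrin, read 10.83 and 10.86 in mutant and 11.27 and 11.32 in wild type mice (−0.45 ± 0.05, adjusted p = 0.0111). Sirt5, the mitochondrial desuccinylase, fell by 0.39 ± 0.07 (adjusted p = 0.0267) and the tankyrase Tnks2 by 0.29 ± 0.07 (adjusted p = 0.0499). These 3 calls fell to 0 without mutant 2, wild type 1 or wild type 2. Nnmt, which methylates nicotinamide and so removes it from salvage, read 8.81 and 8.85 in mutant and 8.47 and 8.03 in wild type mice without passing (0.58 ± 0.14, adjusted p = 0.0579).

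Of 12 genes measured for NADH shuttles and other NADH-linked redox steps, 5 fell, 1 rose and 6 did not pass. Thus 6 of the 12 passed, beside 12.8% of all probe sets. The median difference was −0.40. Under the hybridization controls 5 fell and 2 rose, with a median of −0.29. The glycerol phosphate shuttle enzymes Gpd1 and Gpd2 fell by 0.87 ± 0.09 and 0.70 ± 0.06. In the malate-aspartate shuttle 3 genes fell, the aspartate aminotransferase Got1 by 0.87 ± 0.11, and the carriers Slc25a12 and Slc25a11 by 0.51 ± 0.07 and 0.53 ± 0.07. Cyb5r3, an NADH-cytochrome b5 reductase, rose by 0.66 ± 0.06. Adjusted p-values of these 6 genes lay between 0.00621 and 0.0165. The number of falls was 6, 2, 3 and 2 with mutant 1, mutant 2, wild type 1 or wild type 2 left out.

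NADPH genes moved in both directions. Of 14 measured, 3 rose and 1 fell (28.6%, beside 12.8% of all probe sets), with a median of −0.05. Under the hybridization controls 4 rose and 1 fell, with a median of 0.06. The malic enzyme Me2, the glutathione reductase Gsr and the folate enzyme Aldh1l1 rose by 0.54 ± 0.08, 0.47 ± 0.08 and 0.57 ± 0.11 (adjusted p between 0.0191 and 0.0337). Prdx3, the mitochondrial peroxiredoxin, fell by 0.31 ± 0.05 (adjusted p = 0.0236). The rises numbered 1, 0, 2 and 0 with mutant 1, mutant 2, wild type 1 or wild type 2 left out, and the fall did not pass with any 1 mouse left out. Idh2, the mitochondrial isocitrate dehydrogenase, read 11.06 and 10.66 in mutant and 10.24 and 10.95 in wild type mice, lowest in wild type 1 as the slow fibre genes were.

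Of 16 genes whose proteins are reported substrates of Sirt3 in mitochondria or linked to it, 7 fell and 0 rose in limma (10 lower and 1 higher at an unadjusted p under 0.05), with a median of −0.29. The share that passed was 43.8%, beside 12.8% of all probe sets. With the hybridization controls 5 fell and 1 rose. The falls were Pdha1, the E1 alpha subunit of pyruvate dehydrogenase (−0.53 ± 0.06), the permeability pore regulator Ppif (−0.56 ± 0.08), the manganese superoxide dismutase Sod2 (−0.50 ± 0.08), Ogdh (−0.36 ± 0.06), the fusion protein Opa1 (−0.30 ± 0.06), the acyl-CoA dehydrogenase Acadm (−0.46 ± 0.10) and the complex II subunit Sdha (−0.28 ± 0.06). Adjusted p-values lay between 0.00995 and 0.0468. Falls numbered 6, 1, 0 and 1 with mutant 1, mutant 2, wild type 1 or wild type 2 left out. Transcript levels do not measure acetylation of these proteins.

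**Figure D4:**
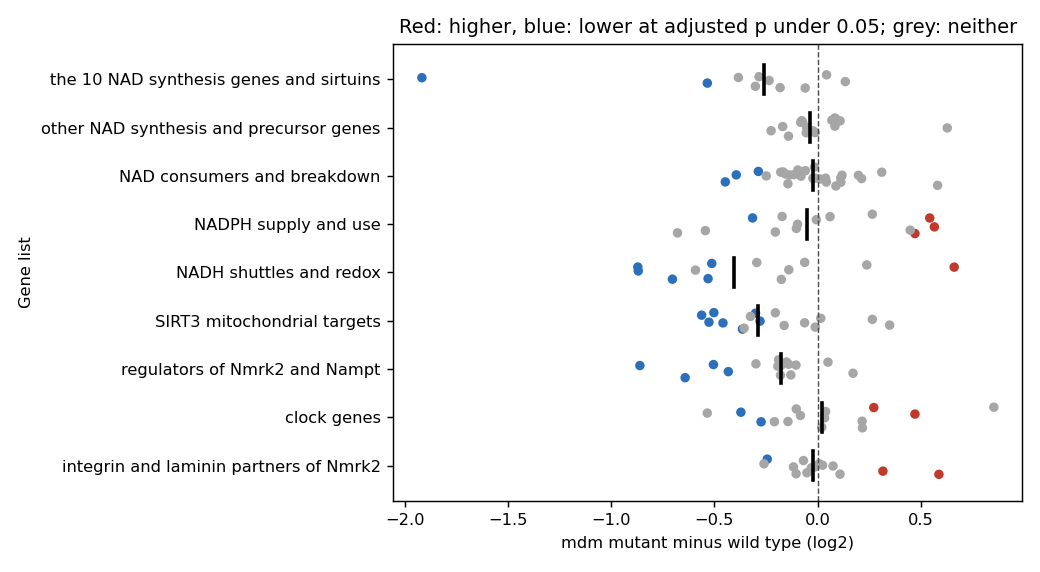
Difference between mutant and wild type muscle on the log2 scale (horizontal axis) for every measured gene of 9 lists (rows), red for genes that rose, blue for genes that fell and grey for genes that did not pass the test, with a black bar at each list's median. The medians run from −0.40 for the NADH shuttles to 0.02 for clock genes, and Nmrk2 at −1.92 lies farthest from 0. The row names for regulators and partners of Nmrk2 give the reason for listing, not a link tested here.

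Another list held 15 measured genes taken as possible regulators of Nmrk2 or Nampt. Of these 15, 4 fell and 0 rose in limma (8 lower and 1 higher at an unadjusted p under 0.05), with a median of −0.18. The share that passed was 26.7%, beside 12.8% of all probe sets. A link between these genes and the level of Nmrk2 or Nampt was not tested. With the hybridization controls 4 fell and 1 rose. The coactivator Ppargc1a read 9.08 and 8.73 in mutant and 9.51 and 10.02 in wild type mice (−0.86 ± 0.20, adjusted p = 0.0483). The fatty acid receptor Ppara fell by 0.64 ± 0.13 (adjusted p = 0.0381), the orphan receptor Esrra by 0.43 ± 0.08 (adjusted p = 0.0295) and Prkab2, a regulatory subunit of the energy sensor AMPK, by 0.50 ± 0.06 (adjusted p = 0.0123). In all 4 the groups did not overlap, as in 12 of the 15 and in 60.9% of all probe sets. For genes chosen because they passed the test, this adds no further support. The number of falls was 2, 1, 2 and 0 with mutant 1, mutant 2, wild type 1 or wild type 2 left out.

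Nampt is also a target of the circadian clock. Of 15 clock genes measured, 2 rose and 2 fell (26.7%, beside 12.8% of all probe sets), with a median of 0.02. Under the hybridization controls 3 rose and 1 fell. The repressors Nr1d1 and Nr1d2 fell by 0.37 ± 0.05 and 0.27 ± 0.06, and Per2 and Hlf rose by 0.47 ± 0.10 and 0.27 ± 0.05 (adjusted p between 0.0149 and 0.0413). With any 1 mouse left out at most 1 clock gene fell and at most 1 rose. The time of day at which the muscles were taken is not given in the labels.

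Genes for integrins, laminins and integrin-binding proteins were listed because the Nmrk2 protein was first described as binding integrin. Of these 14 genes, 2 rose and 1 fell (21.4%, beside 12.8% of all probe sets), with a median of −0.02. Under the hybridization controls 3 rose and 0 fell, with a median of 0.09. Itga7, the integrin alpha chain of mature fibres, read 9.46 and 9.40 in mutant and 8.87 and 8.81 in wild type mice (0.59 ± 0.06, adjusted p = 0.00770). Itgb1, its beta chain, rose by 0.32 ± 0.06 (adjusted p = 0.0345) and the laminin chain Lama5 fell by 0.24 ± 0.05 (adjusted p = 0.0464). The beta 1 binding protein Itgb1bp2 stood at −0.26 ± 0.10 (adjusted p = 0.149). The rises numbered 1 and the falls 0 with any 1 mouse left out.

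The 6 genes nearest to Nmrk2 over the 4 arrays, by Euclidean distance after each gene was centred on its mean, were Pdk4, BC048679, Ucp3, Ppp1r1a, Chac1 and Ramp1, at distances of 0.49 to 0.76 on the log2 scale. Pdk4, the kinase that inhibits pyruvate dehydrogenase, was the nearest. It read 10.90 and 10.23 in mutant and 12.59 and 12.89 in wild type mice. Ucp3, the muscle uncoupling protein, read 7.86 and 7.80 against 9.12 and 9.38. With 4 arrays in 2 groups, the distance rests on few values. Unnamed probe sets and predicted genes (Gm and Rik names) were left out of the searches for nearest genes. The 3 genes nearest to Nampt were Echdc1, Mtarc2 and Pcx, at distances of 0.05 to 0.06, and none of them passed in limma (adjusted p between 0.202 and 0.405). All 3 read highest in wild type 1, as Nampt did. They were chosen by these same values, so the shared peak follows from the choice.

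**Figure D5:**
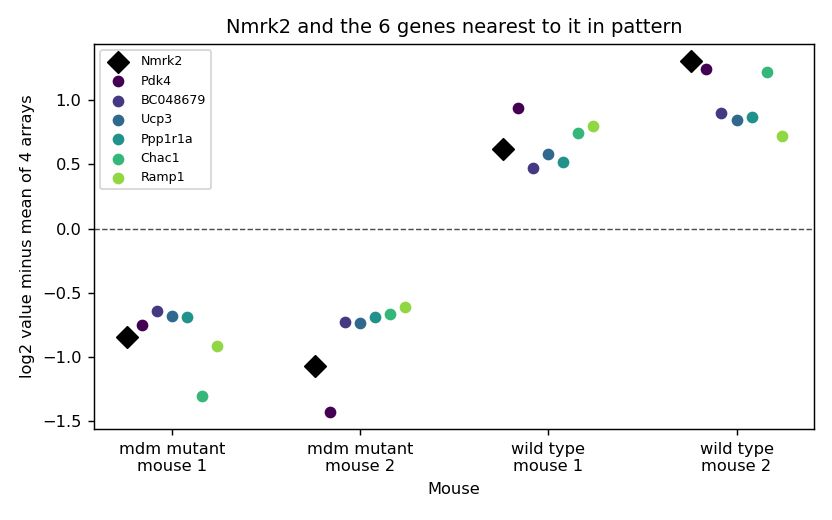
Values of Nmrk2 (black diamonds) and of the 6 genes nearest to it, each minus its mean over the 4 arrays on the log2 scale (vertical axis), in each mouse (horizontal axis). All 7 genes lie below 0 in both mutant mice and above 0 in both wild type mice. The 6 were chosen by these same values, so the shared signs follow from the choice.

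Some markers of other cells differed between the same groups. Beside 12.8% of all probe sets, 57.9% of macrophage, 41.7% of neutrophil, 25.0% of fibroblast and tendon and 16.7% of endothelial markers passed. The shares were 16.7% of Schwann cell and 33.3% of erythroid markers, and 0.0% of lymphocyte, adipocyte and muscle fibre markers. Of 19 macrophage markers, 11 rose and 0 fell (16 and 0 at an unadjusted p under 0.05 in limma), and their mean level was 8.76 and 8.99 in mutant and 8.23 and 8.14 in wild type mice. The rises numbered 11, 6, 3 and 3 with mutant 1, mutant 2, wild type 1 or wild type 2 left out. Of 12 neutrophil markers, 5 rose, and the mean level was 7.42 and 7.86 against 6.93 and 6.95, and the rises numbered 8, 5, 0 and 2 in the same order. Nampt and Nnmt are not confined to fibres, and in bulk muscle fewer cells of a type and less RNA per cell cannot be told apart. Of 8 adipocyte markers 0 passed in limma (5 higher and 0 lower at an unadjusted p under 0.05), with mean levels of 9.24 and 9.35 against 9.04 and 8.43, but 4 rose without wild type 1 and 2 with the hybridization controls. Of 12 endothelial markers, 2 fell and 0 rose, with mean levels of 8.27 and 7.96 against 8.44 and 8.37. The falls numbered 7 without mutant 1, 1 without wild type 2 and 0 without either of the other mice, and 0 with the hybridization controls. Of 12 fibroblast and tendon markers, 3 rose and 0 fell in limma (6 higher and 2 lower at an unadjusted p under 0.05), and 6 rose with the hybridization controls. The differences of this list went both ways, 8 positive and 4 negative. Of 11 lymphocyte markers 0 passed in limma (3 higher and 1 lower at an unadjusted p under 0.05), but 1 rose without mutant 1 and 3 with the hybridization controls. Of 6 Schwann cell markers 1 rose, 0 with any 1 mouse left out and 3 with the hybridization controls. Of 3 erythroid markers 1 rose, with 2 when mutant 1 or mutant 2 was left out, 0 when wild type 1 or wild type 2 was left out and 2 with the hybridization controls. Of the 13 muscle fibre markers 0 passed in limma, also at an unadjusted p under 0.05, with a median difference of 0.00, and 1 rose without wild type 2. Acta1 and Tnni2 read 14.98 and 14.75 on all 4 arrays, at the top of the scale, where RMA forces all arrays to 1 distribution. The median of 0.00 in the muscle fibre list therefore cannot show whether fibre content changed. The part of all these cell types in the values of the 10 genes was not tested.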

How the data were processed

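Quadriceps RNA of 4 mice, 1 Affymetrix array each, was grouped by the genotype label into 2 mdm mutant and 2 wild type mice. Replicate numbers follow deposition order and pair no mice. The deposited values are log2 values. The authors made them with RMA, of unstated version, per the submitters' processing notes. The method subtracts background and forces all arrays to 1 distribution, so a shift of most genes in one direction would not be visible. The table holds no detection calls. No source used here names the array model or the genome build.

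The table held 16553 probe sets, and its 61 array controls stayed out of the tests. The platform annotation named 15270 of the rest, with symbols updated by Entrez identifier from RefSeq (GRCm38.p6). Nnt alone was named through the number in its probe set ID, which was the Entrez identifier in 15250 of these 15270.

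The fit used limma 3.58.1 under R 4.3.3, with eBayes, no covariates, and 3.35 prior and 5.35 total degrees of freedom. It was tested on simulated data. The other settings tried were leaving out probe sets below the median brightness (50%), centring on medians or on 18 hybridization control probe sets, repeated quantile normalization, trend and robust moderation, no moderation, other thresholds, and each mouse left out.

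The 10 genes and all lists were chosen with earlier results of these data known. Named are the 10 genes, each list's calls and up to 4 smallest p-values, and the 6 and 3 genes nearest to Nmrk2 and Nampt. The 4 nearest to Nnt, the sex-linked and slow fibre genes, Ldhb and Idh2 were picked after their values were seen. Figures were drawn with matplotlib 3.10.9.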

Additional observations from a re-analysis of the deposited data

How the results depend on the processing

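Of the 10 genes, 2 passed as lower and 0 as higher. The 2 were 0 without variance moderation and at an adjusted p under 0.01, 4 at an adjusted p under 0.1, and 0 to 3 with a mouse left out. The count over all probe sets was 2115 (1066 higher, 1049 lower). It was 3432 with the hybridization controls (2829 higher, 603 lower), 1 without moderation, 304 and 3719 at adjusted p under 0.01 and 0.1, and 490 to 1182 with a mouse left out. Nmrk1 turned positive with the hybridization controls (0.052), and with a mouse left out it ran from −0.193 to 0.074, positive without mdm mutant 2 or wild type 1. Sirt1 ran from −0.027 to 0.115, negative without mdm mutant 2, and Nnt from −1.15 to 0.551, positive without mdm mutant 2 or wild type 2. None of these reversals passed the test. Without moderation the adjusted p was 0.228 for Nmrk2 and 0.201 for Nmnat1. Without moderation only 2 residual degrees of freedom remain, and with a mouse left out its group has 1 sample that is assumed to vary like the others. The cause of the other changes was not tested. No paired analysis was possible because the labels give no replicate numbers that the groups share.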
